A study of Mus musculus with 6 samples.

Results

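The NR4A nuclear receptors, the salt-inducible kinases (SIKs) and the CRTC coactivators are 9 genes that carry parathyroid hormone (PTH) and cyclic AMP signals to transcription. They were followed here in cultured mouse chondrocytes labelled Nf2-knockout or control. The members were taken by gene name from the deposited table: Nr4a1, Nr4a2 and Nr4a3, Sik1, Sik2 and Sik3, and Crtc1, Crtc2 and Crtc3. All 9 were found among its 55401 genes, and all 9 had enough counts to be tested. The libraries were poly(A) RNA-seq of primary chondrocytes, cells taken from mouse cartilage into culture, in a setting described as including differentiation. There were 3 Nf2-knockout libraries, from Nf2f/f cells described as knockout, and 3 control libraries, from Nf2f/f cells, so that both groups carry the floxed gene. The labels give neither what drove the deletion nor the age of the mice, nor whether replicates came from separate animals or cultures. The p-values thus set the difference between groups against only the spread of these libraries, and that spread may be technical. The title of the series names biased signalling of the PTH receptor PTH1R through β-arrestin 2. The comparison here is of Nf2-knockout with control libraries, so biased signalling of the receptor was not tested.

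When PTH binds its receptor, the stimulatory G protein raises cyclic AMP and protein kinase A is activated. Among its substrates are the SIKs, kinases that otherwise phosphorylate the CRTC coactivators and the class IIa histone deacetylases, so that 14-3-3 proteins hold them in the cytoplasm. Once dephosphorylated, CRTCs enter the nucleus and assist the transcription factor CREB, whose immediate targets include the NR4A genes and Sik1. In the mouse growth plate, SIK3 is known for its role in chondrocyte hypertrophy, and in mouse osteoblasts and osteocytes SIKs are known as mediators of PTH action.

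The libraries held 50906043 to 63748798 counts in the Nf2-knockout group and 55516143 to 61103617 counts in the control group. Expression across libraries is given in CPM (the count of a gene relative to the library total, scaled with TMM factors), and levels of different genes in FPKM, which also corrects for length. Nf2 stood at 87.9, 101 and 97.3 CPM in Nf2-knockout cells and at 126, 133 and 122 CPM in control libraries, so its transcripts were lower but far from absent (log2 fold change −0.41, SE 0.0866, edgeR adjusted p = 0.0305). That call was lost without any 1 of the 6 libraries (adjusted p between 0.0518 and 0.123), without TMM factors (log2 fold change −0.31, 0.0712) and in all 3 limma fits on FPKM (0.0709, 0.0727 and 0.0957). TCF21 overexpression is named as the treatment of these Nf2-knockout cells in the labels, and Tcf21 had 0, 2 and 0 counts there and 0, 0 and 0 in control libraries. Of the defining genes of chondrocytes, Col2a1 (33.0 to 72.1 FPKM in Nf2-knockout cells and 16.4 to 25.1 FPKM in control libraries), Sox9 (3.27 to 4.98 FPKM in Nf2-knockout, 4.16 to 5.80 FPKM in control) and Acan (0.445 to 1.56 FPKM in Nf2-knockout, 1.27 to 1.80 FPKM in control) were present in each library. A list of 5 adipocyte markers summed to 1062 to 1426 CPM in Nf2-knockout cells and 934 to 1378 CPM in control libraries, while the 10 chondrocyte markers summed to 699 to 1453 CPM in Nf2-knockout cells and to 598 to 852 CPM in control.

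The sequences before the NR4A genes are shown because they hold the element through which CREB is known to act, and because 1 of the 3 genes, Nr4a3, fell. CREB binds the cyclic AMP response element (CRE), TGACGTCA, and its shorter form TGACG, which reads CGTCA on the other strand. The windows are from RefSeq on GRCm38.p6, read on the strand of each gene from 250 bases before the annotated start, with bases inside GENCODE M21 exons left out. They are chr15:101266596-101266845 (plus strand) for Nr4a1, chr2:57124004-57124253 (minus strand) for Nr4a2 and chr4:48045055-48045152 (plus strand) for Nr4a3. Capitals mark the short CREs.
Nr4a1: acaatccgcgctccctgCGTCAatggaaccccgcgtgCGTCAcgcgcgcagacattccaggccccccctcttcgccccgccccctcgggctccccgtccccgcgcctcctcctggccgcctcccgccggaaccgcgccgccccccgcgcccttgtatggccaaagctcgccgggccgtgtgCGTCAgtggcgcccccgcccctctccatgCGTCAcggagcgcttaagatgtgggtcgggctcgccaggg
Nr4a2: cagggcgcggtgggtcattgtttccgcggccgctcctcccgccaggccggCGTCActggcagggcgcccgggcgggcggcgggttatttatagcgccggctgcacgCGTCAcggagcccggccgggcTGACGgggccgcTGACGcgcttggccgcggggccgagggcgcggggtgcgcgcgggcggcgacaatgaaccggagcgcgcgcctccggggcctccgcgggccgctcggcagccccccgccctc
Nr4a3: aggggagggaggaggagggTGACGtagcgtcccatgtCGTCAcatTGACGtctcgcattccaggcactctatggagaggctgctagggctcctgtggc
Each of the 3 NR4A genes had 4 short CREs within the 250 bases (3 of those of Nr4a3 lie in the 98 bases shown). At least 4 were found in 0.137% of the 32851 mouse promoter windows of the same length, and at least 1 in 17.8%. The short CRE holds the letters CG, and the 250 bases of Nr4a1, Nr4a2 and Nr4a3 are 74.4%, 80.0% and 63.6% G or C. All windows were counted without matching for G and C, so these shares may overstate how unusual 4 are. Nr4a1 and Nr4a2, which did not pass the test, have as many as Nr4a3, so the number does not set Nr4a3 apart. Among the other members with a window in this table, Sik3 had 3, and Sik2, Crtc1 and Crtc3 had 0. The windows of 7 of the 9 members were found, without those of Sik1 and Crtc2. None of the 7 held the full TGACGTCA, which 1.55% of all windows hold, or the NR4A element NBRE (AAAGGTCA, or TGACCTTT on the other strand), which 1.34% hold. A full CRE also counts as 2 short ones, one on each strand. The RefSeq start of Nr4a1 lies 12577 bases inside the deposited gene, so the window belongs to an internal start, and that of Nr4a3 lies 152 bases inside. A match is a match of letters only.

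**Figure D1:**
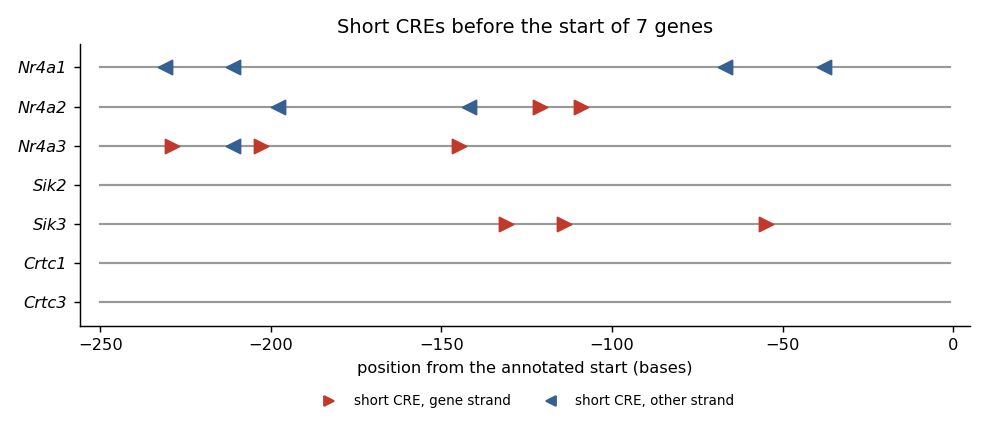
Positions of the short CREs (TGACG on the gene strand, arrows to the right, or on the other strand, arrows to the left) in the 250 bases before the RefSeq start of 7 members, in bases from the start. Nr4a1, Nr4a2 and Nr4a3 have 4 each, Sik3 has 3 and the other members shown have 0.

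Nr4a3 fell and Sik1 rose in Nf2-knockout chondrocytes, and the other 7 genes did not pass the test. That is 2 of 9 members called, where edgeR called 9.29% of the 18218 genes tested (4.11% higher and 5.18% lower). Without TMM factors the split of all called genes was 1130 higher and 707 lower, and on FPKM with limma it was 1053 higher and 615 lower, against 749 higher and 944 lower in edgeR with TMM. The directions of Nr4a3 and Sik1 were the same under each of those scalings. The CPM of the groups did not overlap for 3 members, Nr4a2 and Nr4a3 being lower and Sik1 higher in Nf2-knockout libraries, against 32.9% of all tested genes. Over the 9 members the median log2 fold change was −0.09, against −0.01 over all genes tested.

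**Figure D2:**
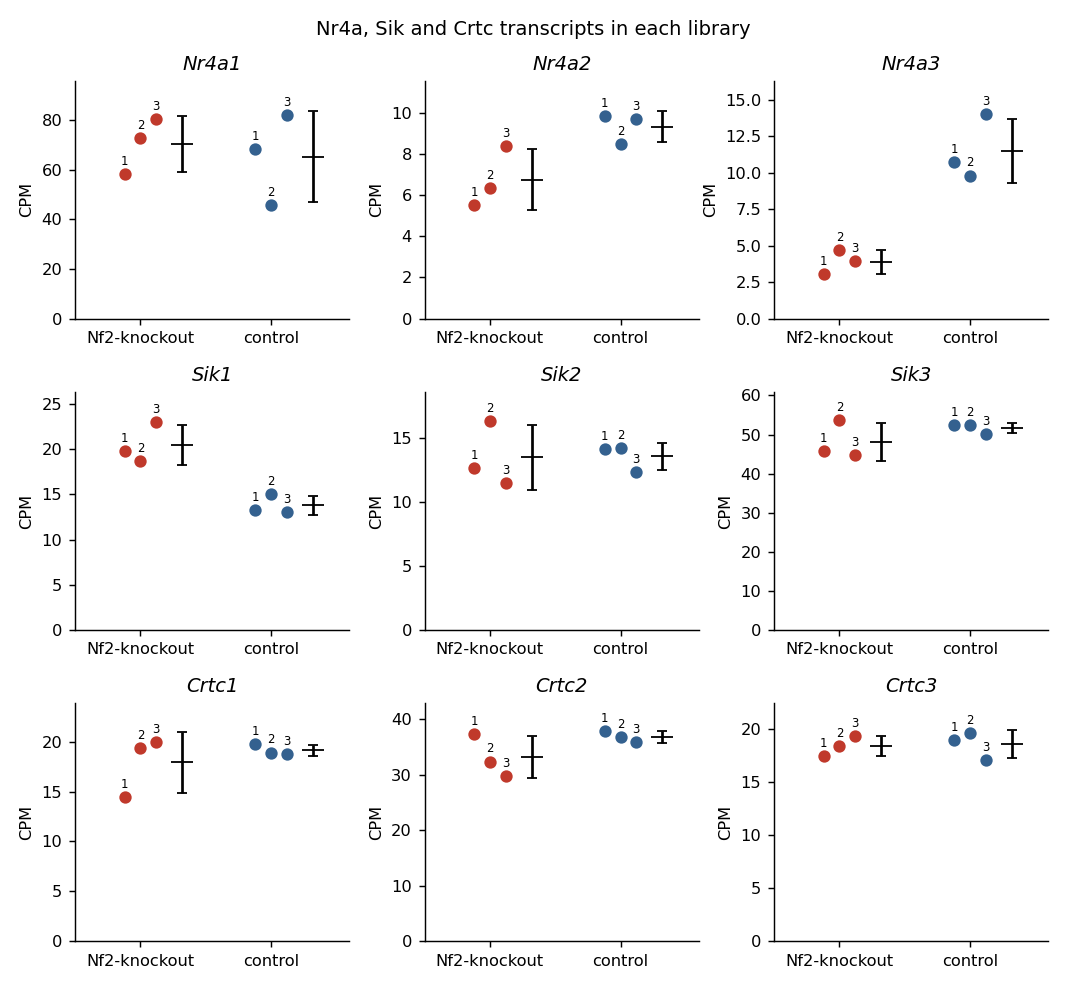
CPM of each of the 9 genes in the 3 Nf2-knockout and 3 control libraries (points, numbered by replicate), with the mean and SD of each group as a bar beside them; each axis starts at 0. Nr4a3 lies between 3.04 and 4.72 CPM in Nf2-knockout cells and between 9.81 and 13.99 CPM in control libraries, while Sik1 is the member with the opposite separation.

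Nr4a3 (ENSMUSG00000028341, chromosome 4, 48045153 to 48086445, plus strand, GRCm38) encodes NOR1, an orphan nuclear receptor that binds DNA without a known hormone. Its level was 3.04, 4.72 and 3.94 CPM in Nf2-knockout libraries and 10.7, 9.81 and 13.99 CPM in control libraries. The highest Nf2-knockout value was below the lowest control value. The mean was 3.90 ± 0.838 CPM in Nf2-knockout cells and 11.5 ± 2.20 CPM in control libraries (SD, n = 3 each), from 159, 298 and 263 counts in Nf2-knockout and 637, 529 and 799 counts in control. The log2 fold change was −1.56 (SE 0.229, 95% interval −2.10 to −1.02, edgeR adjusted p = 0.0102), which puts Nf2-knockout at 33.9% of control. It passed in 6 of the 6 fits that left out 1 library, where the log2 fold change lay between −1.72 and −1.39 and the adjusted p between 0.0183 and 0.0415.

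Nr4a1 (ENSMUSG00000023034, chromosome 15, 101254269 to 101274795, plus strand) encodes NUR77, the receptor of the family first known as an immediate early gene. It was the most abundant of the 9 genes and stood at 58.3, 72.7 and 80.3 CPM in Nf2-knockout cells and 68.3, 45.7 and 81.9 CPM in control libraries. The range of the controls took in all 3 Nf2-knockout values, and control replicate 2 was the lowest of the 6. The log2 fold change was 0.11 (SE 0.221, 95% interval −0.41 to 0.63, edgeR adjusted p = 0.812), and without control replicate 2 its sign turned, at −0.09. The interval leaves room for changes of either direction.

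Nr4a2 (ENSMUSG00000026826, chromosome 2, 57106830 to 57124003, minus strand) encodes NURR1, the receptor of the family best known from dopamine neurons. It stood at 5.53, 6.35 and 8.36 CPM in Nf2-knockout cells and 9.81, 8.45 and 9.67 CPM in control libraries. The groups came close to each other without crossing, and on FPKM they crossed, with Nf2-knockout replicate 3 at 1.94 and control replicate 2 at 1.81 FPKM. The log2 fold change was −0.46 (SE 0.195, 95% interval −0.92 to −0.0056) and did not pass, with an edgeR adjusted p = 0.197 and an unadjusted p = 0.0479.

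Because ratios of genes within a library do not depend on how libraries are scaled, the members of each family were also compared with each other. Nr4a3 reached 3.06%, 3.80% and 2.87% of the FPKM of Nr4a1 in Nf2-knockout libraries and 9.20%, 12.5% and 9.999% in control libraries. Against Nr4a2 it reached 37.5%, 50.7% and 31.9% in Nf2-knockout cells and 74.3%, 78.7% and 98.5% in control libraries. Neither ratio overlapped between groups, and nor did that of Nr4a2 to Nr4a1, at 8.16%, 7.498% and 8.996% in Nf2-knockout cells and 12.4%, 15.9% and 10.2% in control libraries. For each of the 3 the exact two-sided permutation test gave p = 0.1, the smallest that 3 against 3 libraries allow. After Benjamini-Hochberg adjustment over the 6 ratios computed it was 0.12. As Nr4a3 had already separated by itself, its ratios repeat that difference and are no further support. How often ratios of other gene pairs separate was not computed.

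No such separation was seen in the level of the family. Summed over the 3 receptors, the level was 17.1, 21.4 and 24.1 FPKM in Nf2-knockout cells and 20.7, 14.6 and 24.2 FPKM in control libraries, with full overlap. Nr4a1 made up 89.7 ± 0.284% of that sum in Nf2-knockout cells and 81.1 ± 2.87% in control libraries, and Nr4a3 made up 2.91 ± 0.445% in Nf2-knockout and 8.55 ± 1.11% in control (SD, n = 3 each). The fall of Nr4a3 was in the least abundant receptor, at 0.606 ± 0.130 FPKM in Nf2-knockout cells and 1.67 ± 0.310 FPKM in control libraries.

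**Figure D3:**
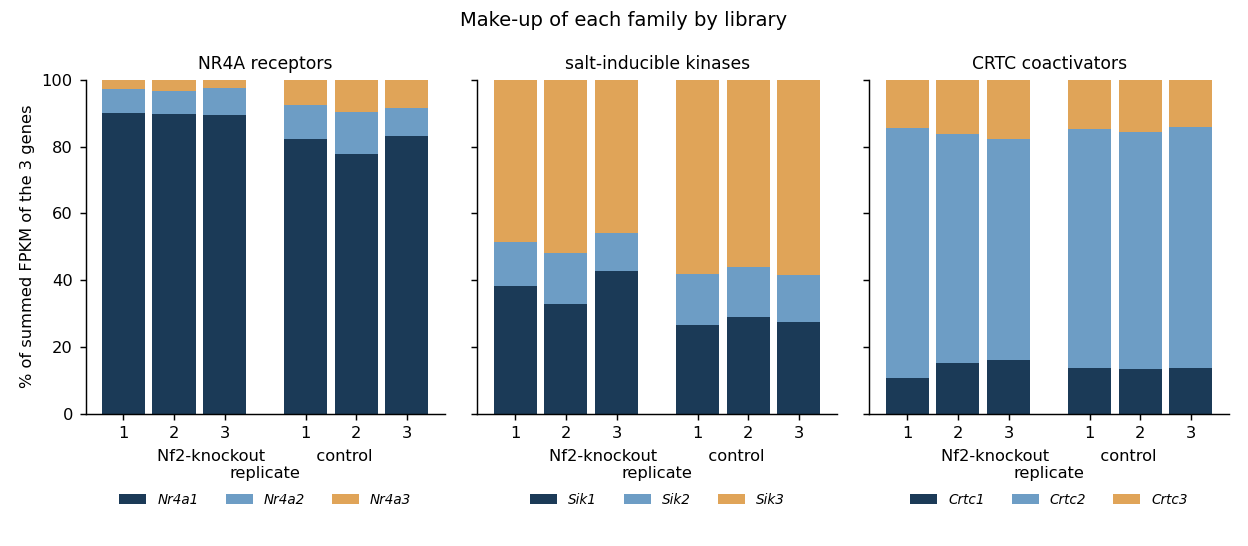
Share of each member in the summed FPKM of its family, in percent, for the NR4A receptors, the salt-inducible kinases and the CRTC coactivators, with 1 bar per library and the Nf2-knockout libraries to the left of the controls. The Nr4a3 share is 2.57% to 3.41% in Nf2-knockout cells and 7.57% to 9.76% in control libraries, and the Sik1 share is 32.8% to 42.8% in Nf2-knockout and 26.6% to 29.1% in control libraries.

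NR4A receptors are also used by macrophages, whose markers were lower in Nf2-knockout libraries. Of 10 macrophage markers 9 were tested and 2 fell (Cd68 and Csf1r), with 6 of the 9 not overlapping and lower. Over all 18218 tested genes 5.18% were called lower, and 3166 did not overlap and were lower. They summed to 43.7 to 93.7 CPM in Nf2-knockout cells and 120 to 307 CPM in control libraries, with none of the 10 at 0 in all libraries and Ptprc, which marks all leukocytes, at means of 0.136 CPM in Nf2-knockout cells and 0.929 CPM in control. Control replicates 1, 2 and 3 had marker sums of 120, 307 and 157 CPM, with Nr4a3 at 10.7, 9.81 and 13.99 CPM. Nf2-knockout replicates 1, 2 and 3 had sums of 93.7, 72.7 and 43.7 CPM, with Nr4a3 at 3.04, 4.72 and 3.94 CPM. The part of these cells in the fall of Nr4a3 was not tested, and in RNA from whole cultures fewer cells of a type and less RNA per cell cannot be told apart.

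Sik1 (ENSMUSG00000024042, chromosome 17, 31844250 to 31855804, minus strand) encodes the salt-inducible kinase whose own transcription responds to cyclic AMP, and which damps the CRTC response in turn. It stood at 19.8, 18.7 and 23.0 CPM in Nf2-knockout cells and 13.2, 15.0 and 13.1 CPM in control libraries. Each Nf2-knockout library was above each control library. The mean was 20.5 ± 2.21 CPM in Nf2-knockout cells and 13.8 ± 1.08 CPM in control libraries (SD, n = 3 each). The log2 fold change was 0.57 (SE 0.128, 95% interval 0.27 to 0.88, edgeR adjusted p = 0.0368), a 1.49-fold difference. The direction held in each fit that left out 1 library (0.49 to 0.64), but the call did not: the adjusted p was 0.0901, 0.0614 and 0.116 without Nf2-knockout replicates 1, 2 and 3, and 0.0978, 0.0725 and 0.0859 without control replicates 1, 2 and 3. It was also lost without a filter on low counts (0.0524) and with limma on unfiltered FPKM (0.0613).

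Sik2 and Sik3, the other kinases of the family, which also phosphorylate CRTCs, did not pass the test. Sik2 (ENSMUSG00000037112, chromosome 9, 50892801 to 51009073, minus strand) stood at 12.6, 16.3 and 11.5 CPM in Nf2-knockout cells and 14.1, 14.2 and 12.3 CPM in control libraries. Its log2 fold change was −0.0077 (95% interval −0.39 to 0.38, edgeR adjusted p = 0.985), and its sign depended on the scaling. Its exons share 1429 bases with Ppp2r1b on the opposite strand, and since no source used here says that counting used strand, reads of the 2 genes there cannot be told apart. Sik3 (ENSMUSG00000034135, chromosome 9, 46012820 to 46224194, plus strand), the family member known from growth plate hypertrophy, stood at 45.9, 53.8 and 44.7 CPM in Nf2-knockout cells and 52.4, 52.5 and 50.3 CPM in control libraries. Nf2-knockout replicate 2 lay above all 3 controls and the other two below them. The log2 fold change of Sik3 was −0.10 (95% interval −0.34 to 0.13, edgeR adjusted p = 0.590).

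Within libraries, Sik1 reached 78.5%, 63.2% and 93.3% of the FPKM of Sik3 in Nf2-knockout cells and 45.8%, 51.9% and 47.3% in control libraries. Relative to Sik2 it was at 293%, 214% and 374% in Nf2-knockout cells and 174%, 197% and 198% in control libraries. For both ratios the 3 Nf2-knockout values lay above the 3 control values, at the smallest exact permutation p of 0.1 (0.12 adjusted). As Sik1 had already separated by itself, these ratios repeat that difference and are no further support. The share of Sik1 in the summed FPKM of the 3 kinases was 37.9 ± 4.99% in Nf2-knockout cells and 27.8 ± 1.27% in control libraries (SD, n = 3 each). The sum itself was 9.36 to 10.3 FPKM in Nf2-knockout and 7.96 to 8.73 FPKM in control, without overlap. FPKM carry no TMM factors, and limma on filtered log2(FPKM + 1) called 1053 genes higher and 615 lower. The CPM of 32.9% of all tested genes did not overlap either. A sum with TMM factors was not computed, and the difference in the sum was not tested. Of 7 markers of pericytes and smooth muscle, 3 rose (Acta2, Rgs5 and Cspg4), where 4.11% of all tested genes rose. The 7 markers summed to 391.6 to 679 CPM in Nf2-knockout cells and 188 to 248 CPM in control libraries. The part of such cells in the level of Sik1 was not tested.

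The CRTC genes, which encode the coactivators released when SIKs are inhibited, gave no call, and their 95% intervals lay within −0.44 and 0.25 on the log2 scale. Crtc2 (ENSMUSG00000027936, chromosome 3, 90254163 to 90264125, plus strand), the most abundant of them, stood at 37.4, 32.4 and 29.8 CPM in Nf2-knockout cells and 37.9, 36.7 and 35.8 CPM in control libraries. Only Nf2-knockout replicate 1 lay within the range of the controls (log2 fold change −0.15, 95% interval −0.41 to 0.11, edgeR adjusted p = 0.469). Crtc1 (ENSMUSG00000003575, chromosome 8, 70382355 to 70439579, minus strand), best known from neurons, stood at 14.4, 19.4 and 20.0 CPM in Nf2-knockout cells and 19.8, 18.9 and 18.8 CPM in control libraries. Nf2-knockout replicate 1 was the low one, and without it the log2 fold change was 0.06 in place of −0.09 (95% interval −0.44 to 0.25, edgeR adjusted p = 0.750). Crtc3 (ENSMUSG00000030527, chromosome 7, 80586627 to 80688877, minus strand) stood at 17.5, 18.4 and 19.3 CPM in Nf2-knockout cells and 18.9, 19.7 and 17.1 CPM in control libraries (log2 fold change −0.01, 95% interval −0.27 to 0.24, edgeR adjusted p = 0.959). The ratio of Crtc1 to Crtc2 was 14.1%, 21.9% and 24.6% in Nf2-knockout cells and 19.2%, 18.9% and 19.1% in control libraries (exact permutation p = 1). Within the control group the ratio was nearly fixed, and it was the Nf2-knockout libraries that differed among themselves.

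**Figure D4:**
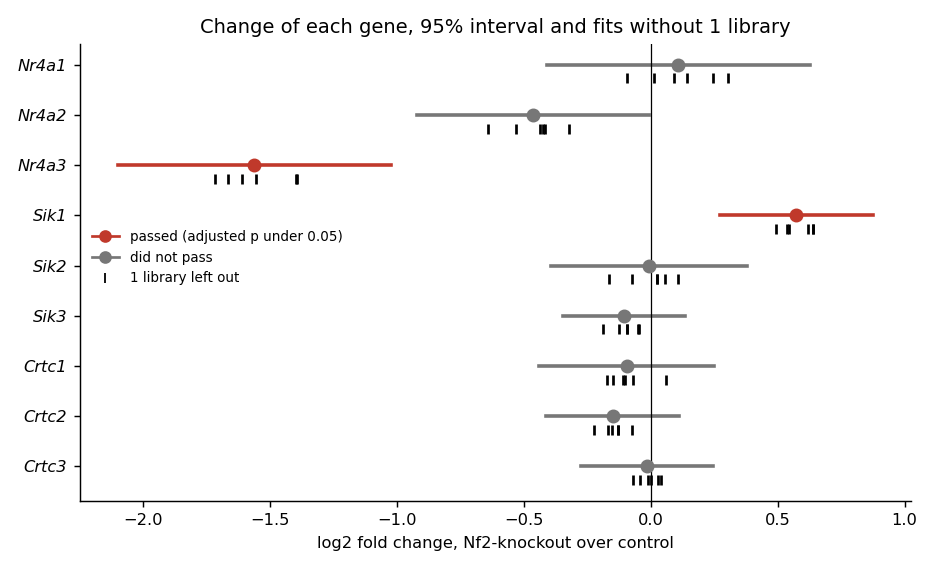
Log2 fold change of each gene, Nf2-knockout over control, from edgeR (point) with its 95% interval (line), in red where the adjusted p was under 0.05 and grey where not. Ticks under each line are the 6 fits that left out 1 library: those of Nr4a3 run from −1.72 to −1.39 and those of Sik1 from 0.49 to 0.64.

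Spread between replicates differed among the members. The coefficient of variation of CPM in the control group was 28.0% for Nr4a1 and 19.1% for Nr4a3, while Nr4a2, at 8.0%, lay next to Sik1 (7.85%) and Sik2 (7.83%), and the lowest was Sik3 (2.50%). In Nf2-knockout libraries it ran from 4.93% for Crtc3 to 21.6% for Nr4a2. All members but Nr4a1 and Crtc3 varied more in Nf2-knockout than in control libraries. The values were 10.3%, 17.0% and 11.5% for Sik3, Crtc1 and Crtc2, against 2.50%, 2.89% and 2.75% in control. For Sik2 they were 18.7% against 7.83%, for Sik1 10.8% against 7.85% and for Nr4a3 21.5% against 19.1%. Nr4a1 (15.9% against 28.0%) and Crtc3 (4.93% against 7.08%) went the other way. These differences between groups of 3 were not tested.

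By level per length, averaged over the 6 libraries, the order was Nr4a1 (17.4 FPKM), Crtc2 (7.67), Sik3 (4.82), Sik1 (3.03), Nr4a2 (1.76), Crtc3 (1.69), Crtc1 (1.49), Sik2 (1.27) and Nr4a3 (1.14). From Nr4a1 down to Nr4a2 each gene was above the next in 6 of 6 libraries. Nr4a2 and Crtc3 could not be placed in order, Nr4a2 being higher in 4 of 6, and nor could Sik2 and Nr4a3, where Sik2 was higher in 3 of 6: those were the 3 Nf2-knockout libraries, at 1.13 to 1.58 against 0.471 to 0.730 FPKM of Nr4a3, while the controls had 1.11 to 1.29 FPKM of Sik2 and 1.42 to 2.01 FPKM of Nr4a3. Nr4a3 thus stood last of the 9 in Nf2-knockout libraries. Crtc1 was above Sik2 in 5 of 6.

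Profiles were searched among 10573 tested genes with a mean of at least 5 CPM, clone names left out, Nr4a3 and Sik1 being among them. The profiles closest to Nr4a3 over the 6 libraries were those of Chst2, Cpxm1 and Mdk. Chst2 is a sulfotransferase gene, Cpxm1 a carboxypeptidase family gene, and Mdk encodes the growth factor midkine. Their log2 CPM, each centred on its own mean, differed from that of Nr4a3 by a root mean square of 0.0836, 0.107 and 0.117. Chst2, the closest, stood at 46.3, 68.1 and 55.4 CPM in Nf2-knockout cells and 127, 139 and 176 CPM in control libraries (log2 fold change −1.38). Like Nr4a3 it had its lowest value in Nf2-knockout replicate 1 and its highest in control replicate 3. For Sik1 the closest were Prkca, which encodes protein kinase C alpha (0.0453), Fam129a (0.0552) and Ptpn11, which encodes the phosphatase SHP2 (0.0636). Prkca stood at 34.7, 29.6 and 37.5 CPM in Nf2-knockout cells and 21.8, 24.3 and 22.01 CPM in control libraries (log2 fold change 0.58). As the 6 libraries form 2 groups, this likeness takes in the difference between groups.

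The genes around the members in the pathway were read from 9 lists. The lists, like the members, were chosen with earlier results of these data known, so their counts are not independent of the data. Of 79 genes, 75 were tested, 6 rose and 6 fell, with a median log2 fold change of −0.10, against −0.01 and the shares of 4.11% and 5.18% over all genes. The calls lay in 5 of the 9 lists, most of them among the targets of CREB.

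**Figure D5:**
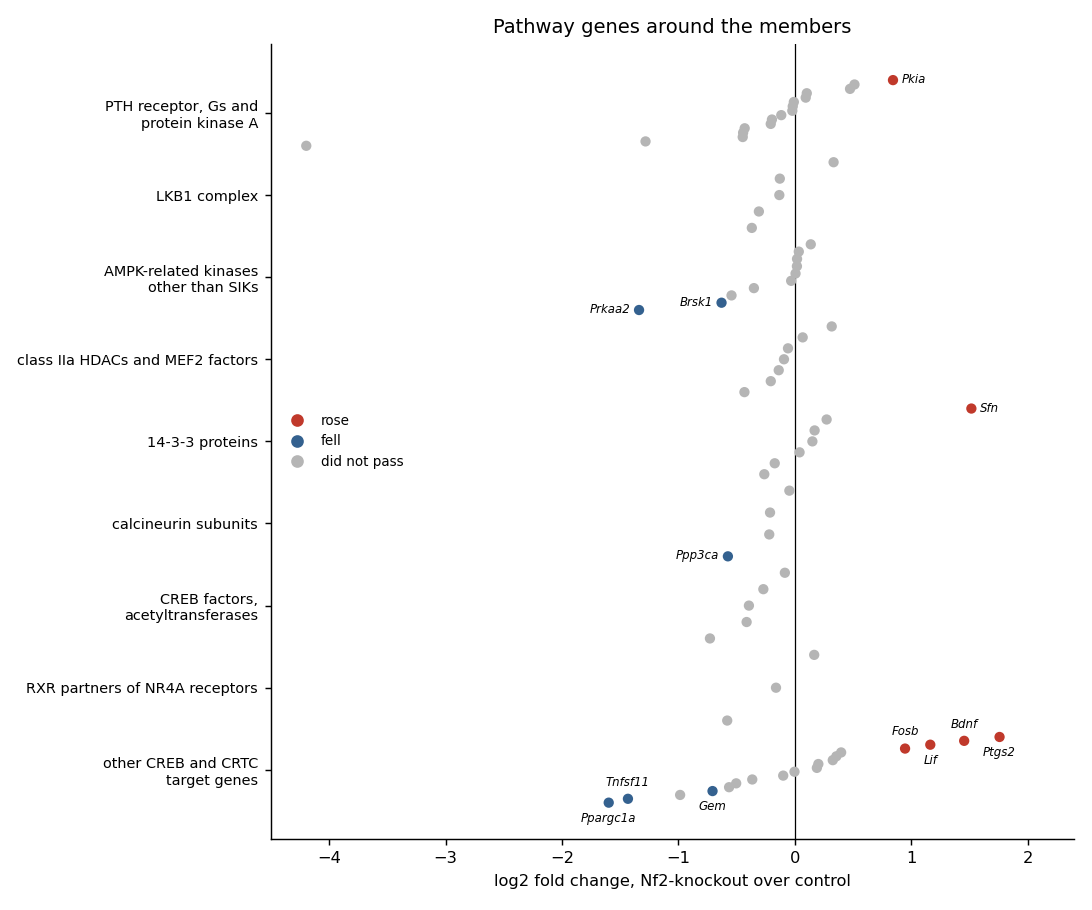
Log2 fold change, Nf2-knockout over control, of the 75 tested genes in the 9 pathway lists (1 point per gene, spread vertically within a list), with red for genes that rose, blue for genes that fell and grey for those that did not pass. The named genes are the 12 that passed, and the grey point near −4.2 is Pkib, at under 1 CPM in each library.

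Upstream of the SIKs, the PTH receptor, stimulatory G protein and protein kinase A list gave 1 rise and 0 falls among 16 tested genes. At an unadjusted p under 0.05 in edgeR were 7 of the 16, against 4518 of all 18218 tested genes. Without overlap in CPM, 4 were higher and 4 lower in Nf2-knockout libraries, where 32.9% of all tested genes did not overlap. Pkia, which encodes a peptide inhibitor of protein kinase A, rose to 20.1 ± 2.53 CPM in Nf2-knockout, against 11.2 ± 0.783 CPM in control libraries (SD, n = 3 each; log2 fold change 0.84, SE 0.137, edgeR adjusted p = 0.0137). Leaving out Nf2-knockout replicate 1 ended that call (adjusted p = 0.0553). The related inhibitor gene Pkib averaged 0.0211 CPM in Nf2-knockout cells and 0.434 CPM in control and did not pass (edgeR adjusted p = 0.0849). The receptor gene Pth1r stood at 7.29, 6.24 and 4.32 CPM in Nf2-knockout cells and 8.60, 15.1 and 19.8 CPM in control libraries, without overlap, and did not pass (log2 fold change −1.28, edgeR adjusted p = 0.0581); it passed with DESeq2 (adjusted p = 0.00146) and, in edgeR, without control replicate 1 (0.0329). The catalytic subunit gene Prkaca stood at 93.4 CPM in Nf2-knockout cells and 87.6 CPM in control libraries on average. It did not pass (edgeR adjusted p = 0.519).

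The LKB1 complex activates SIKs by phosphorylation, and 0 of its 5 genes were called in either direction (2 at an unadjusted p under 0.05 in edgeR). Of 10 tested kinases related to SIKs through AMPK, 0 rose and 2 fell. Prkaa2, an AMPK catalytic subunit, fell to 10.2 ± 2.74 CPM in Nf2-knockout, against 25.9 ± 7.19 CPM in control libraries (log2 fold change −1.34, edgeR adjusted p = 0.0267). Leaving out Nf2-knockout replicate 1 or 3 or control replicate 1 or 2 ended the call (0.104, 0.0900, 0.0779 and 0.0895). Brsk1, a kinase known from neurons, fell to 7.94 ± 0.449 CPM in Nf2-knockout, against 12.3 ± 0.608 CPM in control libraries (−0.63, edgeR adjusted p = 0.0291), and its call was lost without any 1 of the 6 libraries (0.0657 to 0.0942). Limma on unfiltered FPKM called neither Prkaa2 (0.0995) nor Brsk1 (0.0872).

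Among the proteins that handle the phosphorylated substrates, 1 of 7 genes of 14-3-3 proteins rose and 1 of 4 tested calcineurin subunits fell. Sfn, the 14-3-3 protein sigma, rose to 4.12 ± 0.611 CPM in Nf2-knockout, against 1.44 ± 0.0855 CPM in control libraries (log2 fold change 1.51, edgeR adjusted p = 0.0107), and passed whichever library was left out. Sfn was a small part of the 14-3-3 transcripts, the other members having means between 129 and 443 CPM in either group. Ppp3ca, a catalytic subunit of the phosphatase that dephosphorylates CRTCs, fell to 147 ± 20.6 CPM in Nf2-knockout, against 219 ± 22.1 CPM in control libraries (−0.58, edgeR adjusted p = 0.0351), and that call was held only without Nf2-knockout replicate 2 (0.0255; 0.0600 to 0.134 without each other library) and lost without TMM factors (0.0560) and in all 3 limma fits on FPKM (0.0620, 0.0630 and 0.103). The lists of class IIa histone deacetylases and MEF2 factors (7 tested), CREB factors and acetyltransferases (5) and RXR partners of the NR4A receptors (3) held no called gene, with 1, 2 and 0 genes at an unadjusted p under 0.05.

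Genes that share the CREB and CRTC input with the NR4A genes went both ways. Of 18 tested targets 4 rose and 3 fell, with a median of 0.09, where 4.11% of all tested genes rose and 5.18% fell. Of the 27 promoter windows found for 17 of the 19 listed genes, 14 held a short CRE, against 17.8% of all mouse windows. Some genes, such as Bdnf and Pde4b, had several windows, which are not independent of each other. The genes were listed as known CREB targets, and windows were not matched for G and C, so the share is no test. Among the called genes, Fosb and Ppargc1a had 1 short CRE each and Bdnf had 1 in only 1 of its windows. Ptgs2, Lif and Tnfsf11 had 0, and Gem had no window. Ppargc1a, which encodes the mitochondrial regulator PGC-1α and is a known CRTC target, fell to 41.5, 51.8 and 43.1 CPM in Nf2-knockout, against 147, 153 and 114 CPM in control libraries (log2 fold change −1.60, SE 0.145, edgeR adjusted p = 0.00332), and it passed whichever of the 6 libraries was left out. Tnfsf11, the gene of the osteoclast factor RANKL, fell by 1.43 (SE 0.321, adjusted p = 0.0369) and Gem, a small GTPase gene, by 0.71 on the log2 scale (SE 0.133, adjusted p = 0.0212). The call for Tnfsf11 was held only without Nf2-knockout replicate 2 (0.00942; 0.0763 to 0.123 without each other library), and that for Gem only without Nf2-knockout replicate 1 or 2 (0.0451 and 0.0443; 0.0525 to 0.0701 without each other library). Limma on unfiltered FPKM called neither Tnfsf11 (0.0779) nor Gem (0.0688).

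The rises were Bdnf, a neurotrophin gene and a classic CREB target, at 82.2, 58.6 and 85.3 CPM in Nf2-knockout cells and 32.5, 24.7 and 25.4 CPM in control libraries (log2 fold change 1.45, SE 0.180, edgeR adjusted p = 0.00639, held in 6 of 6), and the cyclooxygenase gene Ptgs2 (1.76), the cytokine gene Lif (1.16) and the AP-1 gene Fosb (0.95). The call for Ptgs2 was lost without control replicate 2 or 3 (0.0710 and 0.0694). With limma on unfiltered FPKM the calls for Ptgs2, Lif and Fosb were lost too (0.0582, 0.0614 and 0.0636). In edgeR the call for Lif was held only without Nf2-knockout replicate 2 (0.0226; 0.0545 to 0.0774 without each other library), and that for Fosb only without control replicate 1 or Nf2-knockout replicate 2 (0.0462 and 0.0457; 0.0645 to 0.0853 without each other library). Sik1, which shares that input, stood with the rises and Nr4a3 with the falls.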

How the data were processed

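Poly(A) RNA-seq of 6 libraries was used, 3 Nf2-knockout and 3 control, grouped and numbered by their titles. Per the submitters' processing notes the tools were HISAT2 2.0.4, cutadapt 1.9, edgeR and StringTie 1.3.4d, with no roles stated. No build is named in the sources used here. Deposited by the authors were whole-number counts per gene (how they were made is not stated, so they may be rounded estimates) and FPKM values, normalised by the authors for length and depth, with 0.0001 written where the count was 0 (read here as 0). The deposited positions of 8 of the 9 members equal those of GENCODE M21 on GRCm38. Nr4a3 differs at its end.

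Counts were tested with edgeR 4.0.16 in R 4.3.3 (filterByExpr, TMM, glmQLFit, then a two-sided glmQLFTest of group, Benjamini-Hochberg adjustment over all 18218 tested genes, threshold 0.05, prior count 0.125). SEs were derived from each fold change and its F statistic, which makes them and the 95% intervals approximate. CPM use the same TMM factors. Alternatives were DESeq2 1.42.0, its size factors, no TMM factors, no filter, the replicate number as a block, each library left out, and limma 3.58.1 on log2(FPKM + 1) or log2(FPKM + 0.1), with a minimum mean of 0.5 FPKM or none. The edgeR test and the profile search were tested on simulated data. Replicates of a group differed by more than sampling noise (chi-square per degree of freedom 53.9 to 89.1).

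The members and lists were chosen with earlier results of these data known. Named were the 9 members, Nf2, Pth1r, each listed gene that passed, and, for each member that passed, the 3 tested genes of at least 5 CPM, clone names left out, with the nearest centred log2(CPM + 0.5) profile. Pkib, Prkaca and the markers given by name were picked after their values were seen.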

Additional observations from a re-analysis of the deposited data

How the results depend on the processing

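The fall of Nr4a3 passed in each of the 14 alternatives run, with log2 fold changes from −1.72 to −1.39 in edgeR. On log2(FPKM + 1), which understates the change of low genes, it was −0.73. The number of members called was 2 with DESeq2, its size factors, no TMM factors and limma on filtered FPKM. It was 1 (Nr4a3) without a filter on low counts, with limma on unfiltered FPKM, with the replicate block, and in each fit without 1 library (1 to 1), because Sik1 no longer passed. The cause was not tested. The number of genes changed, 1693, was 2618 with DESeq2, 1063 with limma on unfiltered FPKM, 923 with the replicate block and 629 to 1186 without 1 library. Same-numbered libraries deviated from their group means with correlations of −0.156, 0.0137 and 0.0211. Libraries with unlike numbers gave −0.180 to 0.163, so no pairing by number was evident. With 3 libraries per group a weak pairing could be missed. Under the block Sik1 had an edgeR adjusted p = 0.104, and Pkia, Fosb, Tnfsf11, Brsk1 and Nf2 did not pass either.

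Signs turned for members near 0. Sik2 stood at 0.010 with DESeq2, 0.0084 with its size factors, 0.088 without TMM factors, 0.047 on log2(FPKM + 1) with or without the filter and 0.075 on log2(FPKM + 0.1), and from −0.16 to 0.11 without 1 library. Crtc3 stood at 0.0040, 0.0018, 0.084, 0.055 and 0.084 in that order, and from −0.070 to 0.040 without 1 library. Crtc1 stood at 0.0045 without TMM factors and from −0.17 to 0.059 without 1 library, and Nr4a1 from −0.093 to 0.30. With the 159 to 799 counts of Nr4a3 per library, spread between replicates and not counting error sets the precision.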
